A study of Mus musculus with 4 samples.

Results

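The cadherins and protocadherins are the cell adhesion genes whose symbol on the array is Cdh followed by a number or starts with Pcdh. They were measured in the anterior and the posterior lobes of the cerebellum of Swiss mice at postnatal day 7 (PN7), with no treatment, with 2 samples for each lobe, each on an array of its own. The chip, Illumina MouseWG-6 v2.0, carried 143 probes of 91 such genes among 45281 probes of 30854 symbols. A probe was tested where its detection score, the share of negative control probes dimmer than it, was over 0.95 on at least 2 of the 4 arrays, which left 72 probes of 55 genes. The labels do not state the sex of the pups or how many pups a sample held, and nothing says that the samples of a lobe came from separate litters, so the p-values measure the spread between these samples only.

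Cadherins are membrane proteins that hold neighbouring cells together in the presence of calcium, mostly by binding a cadherin of the same kind on the next cell. The classical cadherins, of type I and type II, anchor to the actin skeleton through catenins. Protocadherins bind more weakly and lack the catenin site. Their clustered genes, alpha, beta and gamma, stand side by side on a single chromosome and give each neuron a combination of isoforms, while the delta protocadherins are single genes. In the developing cerebellum, cadherins of different kinds mark separate groups of Purkinje cells and nuclei and take part in the sorting and wiring of neurons.

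The arrays read the cadherins with similar precision. The median intensity over all probes lay between 110.2 and 129.6 per array, and 21070 to 21574 probes per array had a detection score over 0.95. The bead error of a tested cadherin or protocadherin probe, the standard error of the mean over its beads, was 2.27% to 7.76% of its signal, with an array median of 3.64% to 4.04%. Over all tested probes the log2 difference between the arrays of a lobe had an SD of 0.318 for the anterior lobes and 0.203 for the posterior ones. Among markers of the tissue, 8 of 9 genes of granule neurons and 5 of 8 genes of Purkinje cells had a tested probe, and the Purkinje markers Calb1, Car8 and Ppp1r17 had none. In such bulk tissue, fewer cells of a type and less RNA per cell cannot be told apart.

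The methods of the study took genes that differed by more than 1.2-fold at a p under 0.05, while a figure caption gives 1.5-fold. Here the criterion was 1.2-fold with an unadjusted p under 0.05 by limma. It was met by 1802 probes on the chip, so the calls need not match the study's own list. Of the 72 tested probes 15 met this criterion, 8 being higher in the posterior lobes and 7 lower. Their share was 20.8%, against 8.29% of the 21726 probes tested on the chip. Over the chip 3.30% were higher and 5.00% lower, or 4.50% and 3.91% after shifting the arrays to an equal 75th percentile. The 15 probes stand for 13 of the 55 genes, or 23.6%, against 10.1% of the tested genes of the chip. Probes of 1 gene are not independent. None of the 72 probes passed a Benjamini-Hochberg adjusted p of 0.05 over all probes tested by limma, while 15 had an unadjusted p under 0.05, as did 10.1% of all tested probes. With the methods' t-test none passed the adjusted p either. By that test 10 of the 72 had an unadjusted p under 0.05, as did 1763 of the 21726 probes tested on the chip. On the whole chip 0.106% of the probes passed the adjusted p by limma. The smallest adjusted p was 0.146, for Cdh1. The median log2 difference, posterior minus anterior, was -0.0030 over the 72 probes and 0.0023 over all tested probes, with 35 probes above 0 and 37 below.

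The pairs of arrays did not overlap for 33 of the 72 probes, with the posterior pair above for 15 and below for 18. The share, 45.8%, was near the 42.6% of all tested probes, of which 21.1% had the posterior pair above and 21.5% below. The plot of the 15 probes by array shows that in each of them the lobes did not overlap, a separation that the criterion favours.

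**Figure D1:**
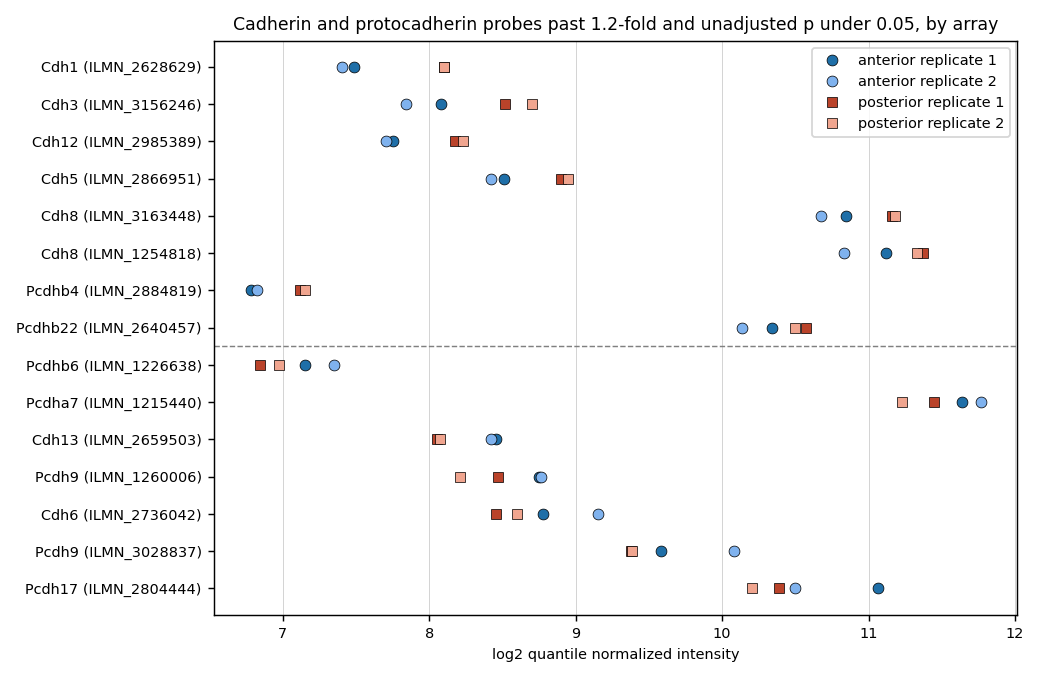
Log2 quantile normalized intensity (horizontal axis) of the 15 cadherin and protocadherin probes past 1.2-fold and an unadjusted p under 0.05, with 1 point per array, circles for the anterior and squares for the posterior lobes. The 8 probes above the dashed line were higher in the posterior lobes, led by Cdh1 from 7.41 and 7.49 to 8.10 on both arrays, and the 7 below it were lower.

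Among the type I cadherins, Cdh1 and Cdh3 were higher in the posterior lobes. They gave 2 of the 6 tested probes of the type, while 3.30% of all tested probes were higher by the study's criterion. None of the other type I probes passed it, and 2 of the others were below 0. The median log2 difference was 0.12, but it was 0.016 without anterior replicate 1, with 3 of 6 probes below 0 and 1 passing as lower, and 0.25 without anterior replicate 2. Cdh1, the E-cadherin of epithelia (ILMN_2628629), had a log2 signal of 7.49 and 7.41 on the anterior arrays and of 8.10 on each posterior array. The posterior arrays were both above the anterior ones, by a gap several times the distance between the arrays of a lobe. The log2 difference was 0.65 with a standard error of 0.11, a 1.57-fold higher signal (adjusted p = 0.146 by limma). A second Cdh1 probe, ILMN_1227162, was not detected on any array. It had 6.54 and 6.49 in the anterior against 6.41 and 6.32 in the posterior lobes, with the posterior pair below. The higher signal of Cdh1 thus rests on a single probe.

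Cdh3, the P-cadherin of placenta and of several epithelia, is the direct neighbour of Cdh1 in the genome. Its probe ILMN_3156246 read 8.08 and 7.84 on the log2 scale in the anterior lobes, and 8.52 and 8.71 in the posterior lobes. Again the posterior arrays were the higher pair, and the log2 difference of 0.65 (standard error 0.14, adjusted p = 0.262 by limma) was as large as that of Cdh1. The other tested Cdh3 probe, ILMN_1222853, did not follow, with a log2 difference of -0.015 and overlapping arrays. Its anterior values were 7.12 and 7.14 and its posterior values 7.00 and 7.22. The remaining probes of Cdh3 did not pass the filter. Of these ILMN_2444594, detected on 1 array, had 6.65 and 6.71 in the anterior against 6.91 and 7.10 in the posterior lobes, which did not overlap. Among tested probes the higher signal of Cdh3 rests on a single probe.

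The type I cadherins best known from neurons did not pass the criterion with all arrays. Cdh2, the N-cadherin of neural tissue (ILMN_1216390), had a log2 signal of 7.32 and 7.59 in the anterior and of 7.47 and 7.51 in the posterior lobes, with the posterior arrays lying between the anterior ones and a log2 difference of 0.036 (standard error 0.13). Another Cdh2 probe, ILMN_2605503, was not detected on any array. It had 6.70 and 6.43 against 6.71 and 6.90, with the posterior pair above. Cdh4, the R-cadherin first known from retina (ILMN_1255939), had 8.85 and 9.12 against 9.16 and 9.20. Its posterior arrays were both higher, but anterior replicate 2 came close to them, and the difference of 0.19 on the log2 scale had a standard error of 0.14. It was 0.057 without anterior replicate 1 and 0.33, past the criterion, without anterior replicate 2. Cdh15, the M-cadherin of muscle and of cerebellar granule cells (ILMN_2610645), had the lowest difference of the type, -0.14 with a standard error of 0.14.

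Of the 13 tested probes of type II cadherins, 4 were higher and 1 was lower in the posterior lobes by the study's criterion. Over the chip 3.30% of the tested probes were higher and 5.00% lower. With the methods' t-test 3 of the 13 were higher and 0 lower, when 3.41% of all tested probes passed. The median log2 difference was 0.20, or 0.093 without anterior replicate 2. The genes past the criterion by limma were Cdh8, Cdh12 and Cdh5 on the higher side and Cdh6 on the lower side. RefSeq (GRCm38.p6) holds a promoter for Cdh8, Cdh12 and Cdh6. The 250 bases before their start are shown because these are the brain cadherins that differed in opposite directions. Cdh8 is at chr8:99416472-99416721 on the minus strand, Cdh12 at chr15:21111202-21111451 on the plus strand and Cdh6 at chr15:13173676-13173925 on the minus strand. Capitals mark the motifs searched on both strands. These were the GC box GGGCGG, the CCAAT box, the TATA box as TATAAA and an E-box, CAGCTG, which reads the same on both strands.
Cdh8: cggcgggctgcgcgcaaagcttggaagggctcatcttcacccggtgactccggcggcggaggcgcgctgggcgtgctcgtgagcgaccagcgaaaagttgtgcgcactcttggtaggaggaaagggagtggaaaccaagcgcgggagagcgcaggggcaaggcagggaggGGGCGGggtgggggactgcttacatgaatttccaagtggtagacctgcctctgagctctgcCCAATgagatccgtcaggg
Cdh12: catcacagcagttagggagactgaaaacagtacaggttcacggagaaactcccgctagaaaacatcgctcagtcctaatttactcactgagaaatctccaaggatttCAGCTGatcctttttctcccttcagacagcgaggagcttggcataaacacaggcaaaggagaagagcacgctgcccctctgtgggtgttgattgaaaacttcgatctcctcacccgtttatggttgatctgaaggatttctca
Cdh6: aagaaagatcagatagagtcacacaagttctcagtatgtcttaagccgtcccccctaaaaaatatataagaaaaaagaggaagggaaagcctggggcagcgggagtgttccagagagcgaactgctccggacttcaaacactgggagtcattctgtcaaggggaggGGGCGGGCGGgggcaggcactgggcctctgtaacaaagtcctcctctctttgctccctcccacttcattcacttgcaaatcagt
The window of Cdh8 held GGGCGG and CCAAT, that of Cdh12 held CAGCTG, and that of Cdh6 held a pair of overlapping GGGCGG matches. TATAAA was in none of them. Over 32851 promoter windows of the same length, 32.7% held the GC box, 33.8% the CCAAT box, 12.4% TATAAA and 13.0% the E-box, so such matches are common and describe the windows only.

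Cdh8, a type II cadherin of neurons, was the cadherin whose tested probes were all higher in the posterior lobes with 2 of them past the criterion. ILMN_3163448 had a log2 signal of 10.85 and 10.67 in the anterior and of 11.16 and 11.18 in the posterior lobes, a log2 difference of 0.41 (standard error 0.096, adjusted p = 0.278 by limma). ILMN_1254818 had 11.12 and 10.83 against 11.37 and 11.33, with a difference of 0.37. In both probes the posterior arrays were the higher pair. Its last tested probe, ILMN_1224574, had 8.87 and 8.57 against 9.12 and 8.84. Here posterior replicate 2 lay just under anterior replicate 1, and the difference of 0.26 did not pass. Another 3 probes of Cdh8 were not detected.

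Cdh12, a brain cadherin, gave opposite signs on its probes. ILMN_2985389 had a log2 signal of 7.75 and 7.70 in the anterior and of 8.18 and 8.23 in the posterior lobes, a clean separation with a log2 difference of 0.48 (standard error 0.11, adjusted p = 0.278 by limma). ILMN_1253923 had 7.15 and 7.59 against 7.02 and 7.47. On this probe the replicate 2 arrays of both lobes were the higher ones, and the difference was -0.13 with a standard error of 0.21. Cdh18 (ILMN_2454860), a further brain cadherin, had the same difference as the higher Cdh12 probe, 0.48, but with a standard error of 0.225 and detection on 1 array of each lobe it did not pass. It had 7.05 and 6.61 against 7.59 and 7.03, so the lobes overlapped. With the replicate number as a block, its adjusted p by limma was 0.039, when 2.71% of all tested probes passed.

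Cdh5, the VE-cadherin that seals endothelial cells together, was higher on both probes. ILMN_2866951 had a log2 signal of 8.51 and 8.42 in the anterior and of 8.90 and 8.95 in the posterior lobes, a log2 difference of 0.46 (standard error 0.12, adjusted p = 0.316 by limma). ILMN_2771550 had 9.81 and 9.60 against 9.84 and 9.97, with a difference of 0.20 that did not pass. None of the 8 tested probes of 7 other endothelial genes passed the criterion. Their log2 differences lay between -0.28 and 0.07 with a median of -0.037, and their summed signal of 12610 to 14060 in the anterior overlapped that of 12920 to 13380 in the posterior lobes. Pcdh12, a protocadherin of endothelial cells (ILMN_1245119), had a difference of 0.07 with overlapping lobes.

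Cdh6, the K-cadherin of kidney and brain (ILMN_2736042), was the lower member of the type. Its log2 signal was 8.78 and 9.15 in the anterior and 8.45 and 8.60 in the posterior lobes. Both posterior arrays were the lower pair, and anterior replicate 2 stood well above the other arrays. The log2 difference was -0.44 (standard error 0.16, adjusted p = 0.452 by limma) and was -0.25, no longer past the criterion, without anterior replicate 2. In the genome Cdh6, Cdh9, Cdh10 and Cdh12 follow each other. Cdh9 was not detected, Cdh10 (ILMN_2745139) had a difference of -0.12 with overlapping lobes, and Cdh12 had the opposite signs given above. In the same way Cdh8, Cdh11 and Cdh5 follow each other, and the 3 probes of Cdh11 did not pass the filter.

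The remaining type II cadherins differed little. Cdh7 (ILMN_2690911), a cadherin of Purkinje and precerebellar neurons, had 10.80 and 10.84 in the anterior against 10.82 and 10.93 in the posterior lobes. With a difference of 0.050 and a standard error of 0.090 it was the type II probe nearest to 0. Cdh20 and Cdh22 had differences of -0.07 and -0.15, with the posterior pair just below the anterior one, and did not pass. Cdh19 and Cdh24 had no tested probe.

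Cdh13, the T-cadherin that sits in the membrane by a lipid anchor and has no catenin site, was read by 3 tested probes that disagreed. ILMN_2659503 had a log2 signal of 8.46 and 8.42 in the anterior and of 8.05 and 8.07 in the posterior lobes, with narrow pairs, a log2 difference of -0.38 (standard error 0.11) and an adjusted p of 0.384 by limma. The other probes of the gene had 10.47 and 10.23 against 10.43 and 10.41, and 9.68 and 9.62 against 9.59 and 9.70, with differences of 0.07 and -0.005. Their lobes overlapped, so the lower signal holds for 1 of the 3 probes. Cdh16, Cdh17, Cdh23 and Cdh26 had no tested probe.

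**Figure D2:**
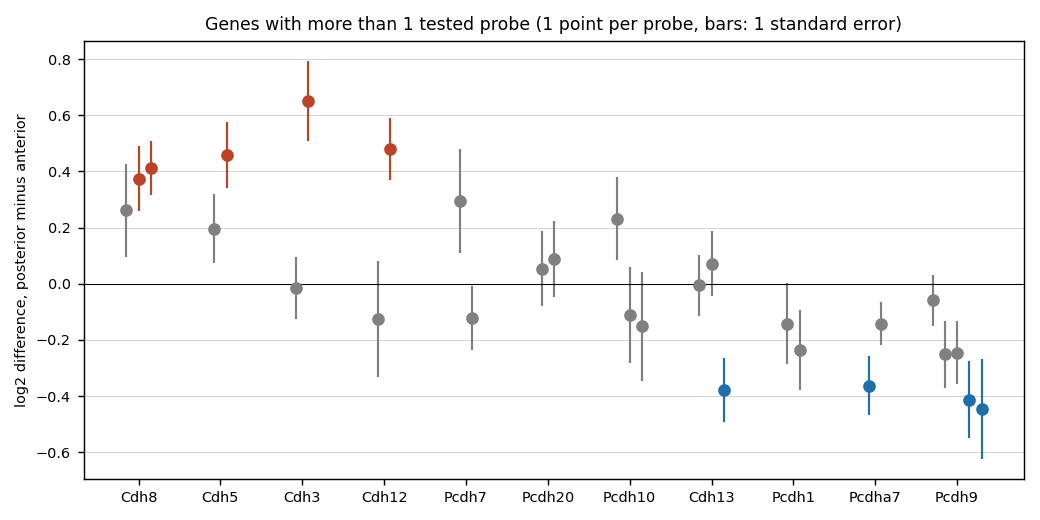
Log2 difference, posterior minus anterior (vertical axis), of each tested probe of the 11 genes with more than 1 tested probe, with bars of 1 standard error by limma. Red and blue points passed the study's criterion as higher and lower, grey points did not. The probes of 6 genes lay on the same side of 0, among them Cdh8 and Pcdh9, and those of 5 genes, such as Cdh3, Cdh12 and Cdh13, on both sides.

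Most probes of delta protocadherins had a slightly lower signal in the posterior lobes, and the smallest adjusted p by limma was 0.417. Of their 15 tested probes, 13 had a log2 difference below 0, against 49.4% of all tested probes, with a median of -0.15. By the criterion 3 were lower and none was higher, against 5.00% and 3.30% of all tested probes. With the methods' t-test the calls were 0, when 3.41% of all tested probes passed. The calls also changed with an array left out, as did the share over all tested probes. On 9 probes both posterior arrays lay below both anterior arrays (21.5% of all tested probes did) and on 1 above. The 15 probes come from 7 genes, and Pcdh9 alone gave 5. The median was between -0.24 and -0.13 with any array left out. The promoters of Pcdh17 and Pcdh9, the delta genes with a probe past the criterion, are shown with the same motifs in capitals. Pcdh17 is at chr14:84443313-84443562 on the plus strand. Pcdh9 is at chr14:93890680-93890929 on the minus strand (the first of its RefSeq entries).
Pcdh17: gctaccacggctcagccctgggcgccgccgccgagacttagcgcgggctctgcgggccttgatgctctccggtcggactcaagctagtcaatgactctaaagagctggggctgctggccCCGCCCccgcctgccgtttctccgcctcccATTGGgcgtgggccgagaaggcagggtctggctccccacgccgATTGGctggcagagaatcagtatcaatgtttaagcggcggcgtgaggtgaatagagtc
Pcdh9: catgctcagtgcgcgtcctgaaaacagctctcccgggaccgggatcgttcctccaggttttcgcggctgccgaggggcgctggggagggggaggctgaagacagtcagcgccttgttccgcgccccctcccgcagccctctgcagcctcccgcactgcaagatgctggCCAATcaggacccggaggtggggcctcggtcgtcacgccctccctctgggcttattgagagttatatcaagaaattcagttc
Pcdh17 held GGGCGG on the opposite strand and a pair of CCAAT matches, and Pcdh9 held CCAAT. Their GC content was 64.8% and 63.6%, against a median of 52.4% over all windows. The promoters of the other genes past the criterion are not shown.

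Pcdh17, a delta protocadherin of axons and synapses (ILMN_2804444), had the lowest log2 difference of all 72 probes. Its log2 signal was 11.07 and 10.50 in the anterior and 10.39 and 10.20 in the posterior lobes. The posterior arrays were the lower pair, but anterior replicate 2 stood closer to them than to anterior replicate 1. The log2 difference was -0.49 with a standard error of 0.19 (adjusted p = 0.487 by limma), and it was -0.21, not past the criterion, without anterior replicate 1. Without anterior replicate 2 it was -0.77 with an adjusted p of 0.0096 by limma.

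Pcdh9, a delta protocadherin widely made in brain, had differences below 0 on its 5 tested probes, of which 2 passed the criterion. ILMN_1260006 had a log2 signal of 8.75 and 8.76 in the anterior and of 8.47 and 8.21 in the posterior lobes, with a log2 difference of -0.41 (standard error 0.14, adjusted p = 0.417 by limma). ILMN_3028837 had 9.58 and 10.08 against 9.38 and 9.39, with a difference of -0.45. Both passed the criterion, the second through a high anterior replicate 2, without which its difference was -0.20. ILMN_1243310 and ILMN_1248508 had differences of -0.25 and -0.24 with separate lobes and did not pass. ILMN_1231837 had 12.49 and 12.40 against 12.48 and 12.29, a difference of -0.060 with overlapping lobes, so the lower signal was not shared by all probes of the gene. Pcdh20, the neighbour of Pcdh9, had differences of 0.05 and 0.09 on its probes.

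The other delta protocadherins did not pass. Pcdh19, a gene of infantile epilepsy (ILMN_2696829), had 8.38 and 8.62 in the anterior against 8.28 and 8.20 in the posterior lobes, a difference of -0.26 with a standard error of 0.135. Its lobes did not overlap, while its other probe was not detected. Pcdh1 had differences of -0.24 and -0.14. Pcdh11x had -0.053, the delta probe nearest to 0. Pcdh7 had 0.29, the highest of the class, on ILMN_1260538 and -0.12 on ILMN_2881857. Pcdh10, known from olfactory and striatal wiring and from Purkinje cell groups, had 0.23, -0.11 and -0.15 on its 3 probes. Pcdh8 and Pcdh18 had no tested probe.

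Myelin genes were also lower in the posterior lobes. Of 24 tested probes of 12 oligodendrocyte genes, 22 were lower in the posterior lobes by the criterion, against 5.00% of all tested probes. All 24 were below 0, against 49.4% of all tested probes, with a median of -0.97. Their summed signal was 136000 to 137300 on the anterior and 86400 to 92920 on the posterior arrays. Ermn and Olig2 had no tested probe, and this list, like the other marker lists, was chosen with earlier results of these data known. The part of these cells in the lower Pcdh9, Pcdh17, Cdh6 and Cdh13 signals was not tested. The marker genes of Purkinje cells, with 13 tested probes, gave 0 calls and a median of -0.091.

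Most markers of meningeal fibroblasts were also higher in the posterior lobes. Of 14 tested probes of 10 such genes, 10 were higher in the posterior lobes by the criterion and none was lower. Over all tested probes the shares were 3.30% and 5.00%, and the median of the 14 probes was 0.51. Their summed signal was 17700 to 20040 on the anterior and 26660 to 31280 on the posterior arrays, and each of the 10 genes had a tested probe. The part of these cells in the higher Cdh1, Cdh3, Cdh5, Cdh8 and Cdh12 signals was not tested. Unipolar brush cell genes gave 2 calls out of 8 probes, both of Calb2 and both higher, with a median of 0.029. Granule neuron genes gave 1 higher and 3 lower calls out of 11 probes, and those of granule cell progenitors none out of 5. Astroglia and microglia gave none, out of 10 and 8.

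Among the clustered protocadherins, 1 of 8 alpha, 3 of 12 beta and 0 of 10 gamma probes passed the criterion, against 8.29% of all tested probes. The beta calls include Pcdhb4 and Pcdhb6, which entered the test only through the lobe where they were bright. Of the 10 beta probes detected on all 4 arrays 1 passed, against 7.93% of all probes so detected. The alpha cluster had a difference below 0 on all 8 tested probes, with log2 differences from -0.39 to -0.026 and a median of -0.25, though with the 75th percentile shift 7 of the 8 were below 0. Only ILMN_1215440 of Pcdha7 passed the criterion. It had a log2 signal of 11.64 and 11.77 in the anterior and of 11.45 and 11.23 in the posterior lobes, a log2 difference of -0.36 (standard error 0.11, adjusted p = 0.364 by limma). The posterior arrays were the lower pair. The other tested Pcdha7 probe, ILMN_1250379, had 13.26 and 13.42 against 13.15 and 13.24. Its lobes were also apart, by less, with a difference of -0.14. All alpha isoforms share their last exons, and the probe sequences were not analysed here, so probes may read a common part of several isoforms and are not independent.

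The alpha median depended on a single array, while the Pcdha7 probe past the criterion also passed without it. Anterior replicate 2 was the brightest of the 4 arrays on all 8 alpha probes, as it was on 34.3% of all tested probes. Pcdhac2 (ILMN_2999354) had a log2 signal of 8.80 and 9.62 in the anterior and of 8.82 and 8.83 in the posterior lobes. Anterior replicate 1 thus lay with the posterior arrays. Pcdha10 had the same pattern, with 7.02 and 7.67 against 7.17 and 6.97. Pcdha12 had 7.64 and 8.17 against 7.55 and 7.54, so its anterior replicate 1 was close to the posterior arrays but above both. Without anterior replicate 2 the alpha median was -0.043 and 4 of 7 tested probes were below 0. Without anterior replicate 1 it was -0.47, with 8 of 8 below 0 and 6 past an adjusted p of 0.05 by limma, when 2538 of the 21201 probes tested on the chip passed. On the same array the choroid plexus markers had their highest summed signal, 12100 against 1954 on anterior replicate 1 and 6434 and 8416 on the posterior arrays. Transthyretin (Ttr), at 9.10 and 13.34 in the anterior against 8.37 and 11.85 in the posterior lobes, had its highest value there, as did Aqp1 and Clic6. Otx2, at 8.32 and 8.16 against 12.31 and 11.82, and both Prlr probes had their lowest. The paper names Otx2 among genes with a compartmentalized pattern in the developing cerebellum. Its signal is part of the sums and raised those of the posterior arrays, so the sums do not read choroid plexus alone. Of the 8 genes of that list 5 had a tested probe, and Folr1, Kcnj13 and Kl had none. The list gave 2 higher and 1 lower call out of 6 probes, against 3.30% and 5.00% of all tested probes. Its median was -0.0079, and its part in the alpha signals was not tested.

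**Figure D3:**
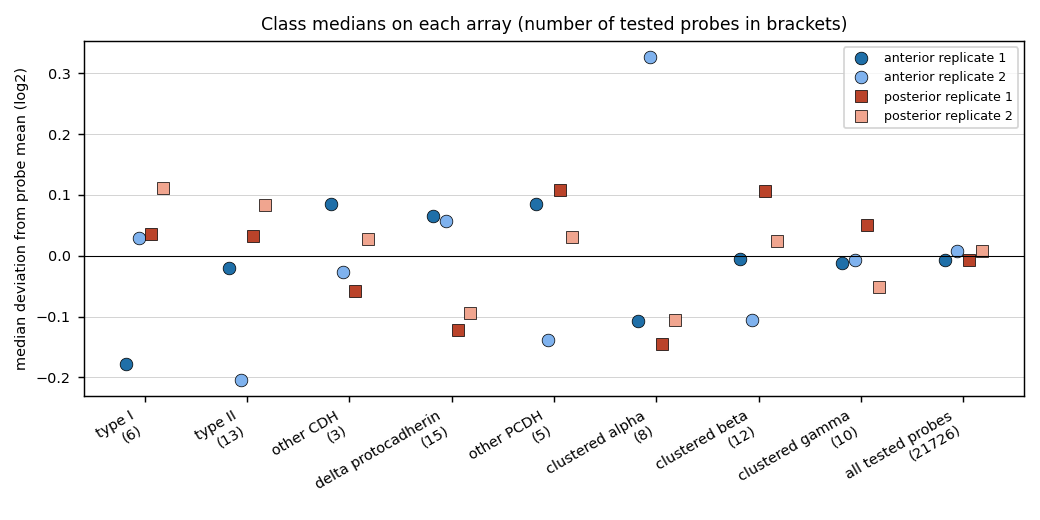
Median over the tested probes of each class (horizontal axis, number of probes in brackets) of the deviation of an array from the mean of the 4 arrays of the probe, in log2 (vertical axis), with circles for anterior and squares for posterior arrays. Anterior replicate 2 stands at 0.33 in the alpha cluster with the other arrays between -0.15 and -0.10, while in the delta class both anterior arrays, at 0.06, lie above both posterior arrays, at -0.12 and -0.09.

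In the beta cluster, whose genes are similar to each other so that a probe may also read a close relative, 12 genes had a tested probe. Of these 2 were higher and 1 was lower by the criterion, and the median log2 difference was 0.057, or 0.17, 0.12 and 0.098 without anterior replicate 1, anterior replicate 2 and posterior replicate 2. Pcdhb22 (ILMN_2640457) had a log2 signal of 10.34 and 10.14 in the anterior and of 10.58 and 10.50 in the posterior lobes, a difference of 0.30 (standard error 0.11, adjusted p = 0.450 by limma). The posterior pair was the higher one. Without anterior replicate 2 its difference was 0.20 and did not pass.

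The other beta calls were at the edge of detection. Pcdhb4 (ILMN_2884819) was detected on both posterior arrays, with detection scores of 0.959 and 0.962, and on neither anterior array, with 0.877 and 0.882. Its log2 signal was 6.78 and 6.83 in the anterior against 7.12 and 7.15 in the posterior lobes. Since its anterior signal was not well above background, only a bound can be given, 1.08-fold more signal in the posterior lobes. For this bound each dim array counted with its own signal for the probe or with the dimmest signal of any detected probe, whichever was larger. The bound has no error term, and the bead error of Pcdhb4 was 5.85% and 5.03% on the posterior arrays. The true difference may thus be smaller than the bound. Pcdhb6 (ILMN_1226638) was the reverse, detected on both anterior arrays only. It had 7.15 and 7.35 against 6.85 and 6.97, with a bound by the same rule of 1.15-fold less signal in the posterior lobes. Both probes entered the test only through the lobe where they were bright, so they had to differ and their p-values are not given. Among the 64 probes detected on all 4 arrays, 13 passed the criterion, 7 higher and 6 lower, against 7.93% of all probes so detected. Pcdhb19 had the largest fitted difference of the cluster, 0.35, but overlapping lobes and a standard error of 0.19. Pcdhb20 had 0.22, and its posterior arrays, at 8.81 and 8.86, were above the anterior ones, at 8.57 and 8.66. Pcdhb8 was nearest to 0 with 0.016.

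In the gamma cluster none of the 10 tested probes passed the criterion, and the median was 0.0088. Pcdhgb2 (ILMN_2735175) had 7.42 and 7.39 in the anterior against 7.63 and 7.60 in the posterior lobes, narrow pairs that did not overlap, with a difference of 0.21 and a standard error of 0.10. Pcdhgc3 had the highest difference, 0.23, with a standard error of 0.25 and overlapping arrays. Pcdhga8 had the lowest, -0.080, and Pcdhga10 the one nearest to 0, at -0.00092. The other gamma probes had differences from -0.043 to 0.14.

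Among the remaining protocadherins, Pcdh12, Pcdh15, Pcdh20 and Pcdh21, all 5 tested probes had differences above 0, from 0.05 to 0.23, and none passed. Without anterior replicate 2 only 2 of the 5 stayed above 0. Pcdh21, now named Cdhr1 and known from photoreceptors (ILMN_2980815), had 8.46 and 7.91 in the anterior against 8.41 and 8.40 in the posterior lobes, so anterior replicate 2 was the low array behind its difference of 0.23. Pcdh15 (ILMN_1254906), which pairs with Cdh23 in the hair cells of the ear, had 0.12. Pcdh24, now named Cdhr2, had no tested probe.

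**Figure D4:**
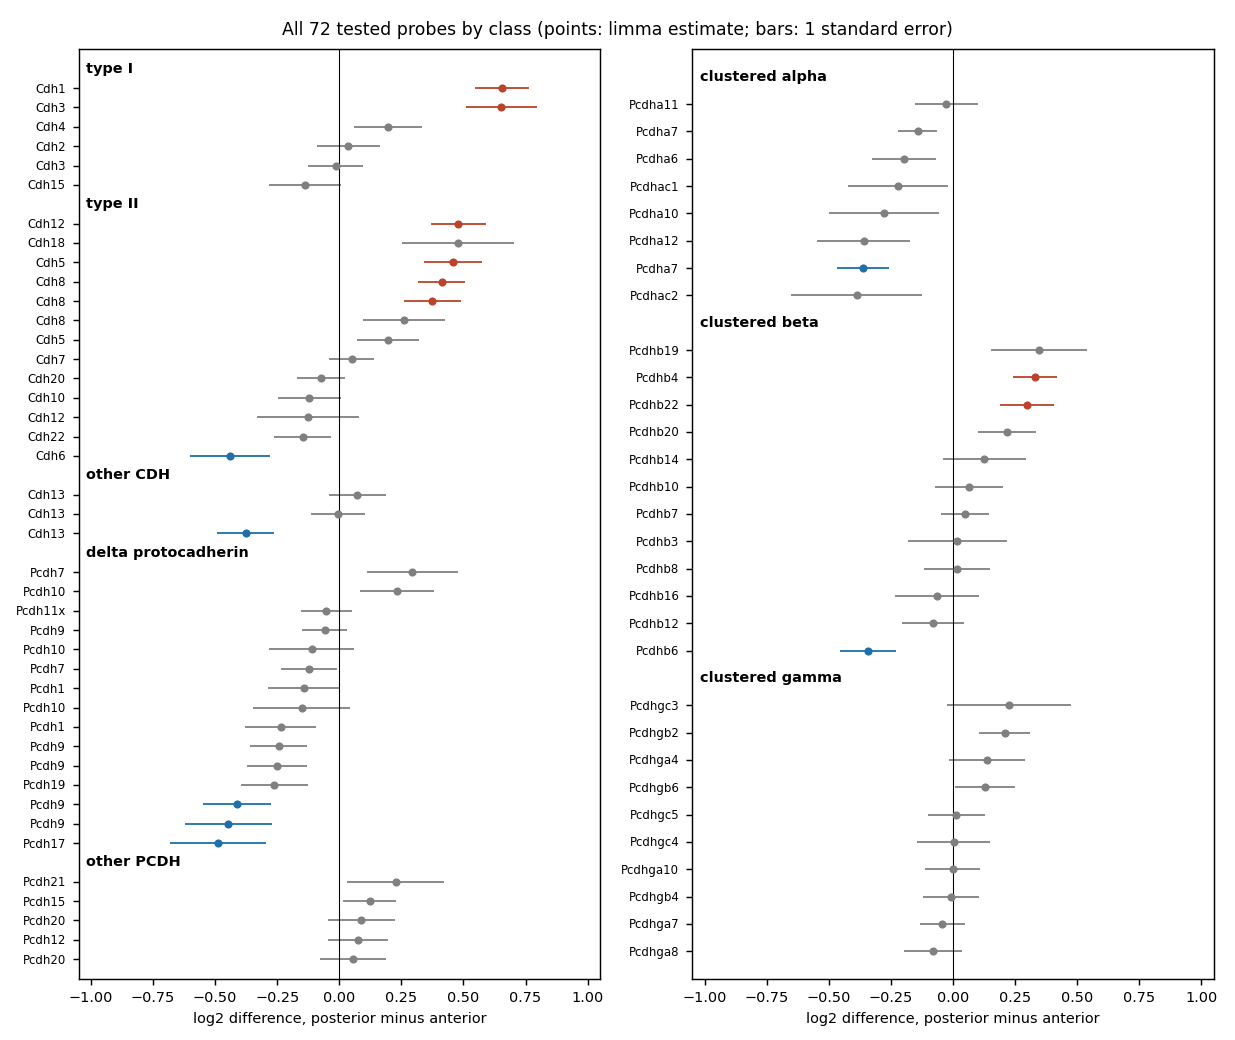
Log2 difference, posterior minus anterior (horizontal axis), of all 72 tested probes, grouped by class and labelled by gene, with bars of 1 standard error by limma. Red points (8) and blue points (7) passed the study's criterion as higher and lower, with Pcdhb4 and Pcdhb6 drawn at fitted values that include a lobe not well above background. The 8 alpha probes all lie below 0, and 13 of the 15 delta probes do.

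The filter left out 71 of the 143 probes, of which 66 were not detected on any array and 5 on 1 array. In all 36 genes had no tested probe, 10 in the beta, 10 in the gamma and 5 in the alpha cluster. A probe of Cdh23 (ILMN_2641588) was just outside the threshold, with a second highest detection score of 0.9498, and Cdh18 was just inside with 0.952. Of the 72 tested probes 64 were detected on all 4 arrays, 2 on 3 and 6 on 2.

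The partners of the cadherins differed on few probes. The 4 lists of partner genes had 62 tested probes of 38 genes, of which 2 were higher and 3 were lower by the criterion, 8.06% against 8.29% of all tested probes. Catenins link classical cadherins to the skeleton, and their list also held the related genes Ctnnal1 and Ctnnbip1. None of the 13 tested probes of 7 genes of this list passed. The differences of these probes lay between -0.36 and 0.20 with a median of -0.032. Ctnna3, Ctnnd1, Jup and Arvcf had no tested probe. Of the desmosome genes, desmoglein Dsg2 had 7.13 and 7.29 in the anterior against 6.52 and 6.53 in the posterior lobes on ILMN_1221153. It was not detected on either posterior array. The bound, again with no error term, was 1.12-fold less signal there, and no p-value is given for the same reason as for Pcdhb6. Its other tested probe had a difference of -0.040. Plakophilin Pkp2 had a log2 difference of -0.40 on ILMN_2927565 and of -0.24 on its other tested probe. Among the atypical and related cadherins, calsyntenin Clstn1 was the only call of 12 probes, with a log2 difference of -0.44 (adjusted p = 0.371 by limma). Of the 31 probes of partners of protocadherins and regulators of their clusters, Rad21, a cohesin subunit, was higher by 0.31 and the kinase Fyn by 0.33 on ILMN_2912082, while the other Fyn probe had -0.091.

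**Figure D5:**
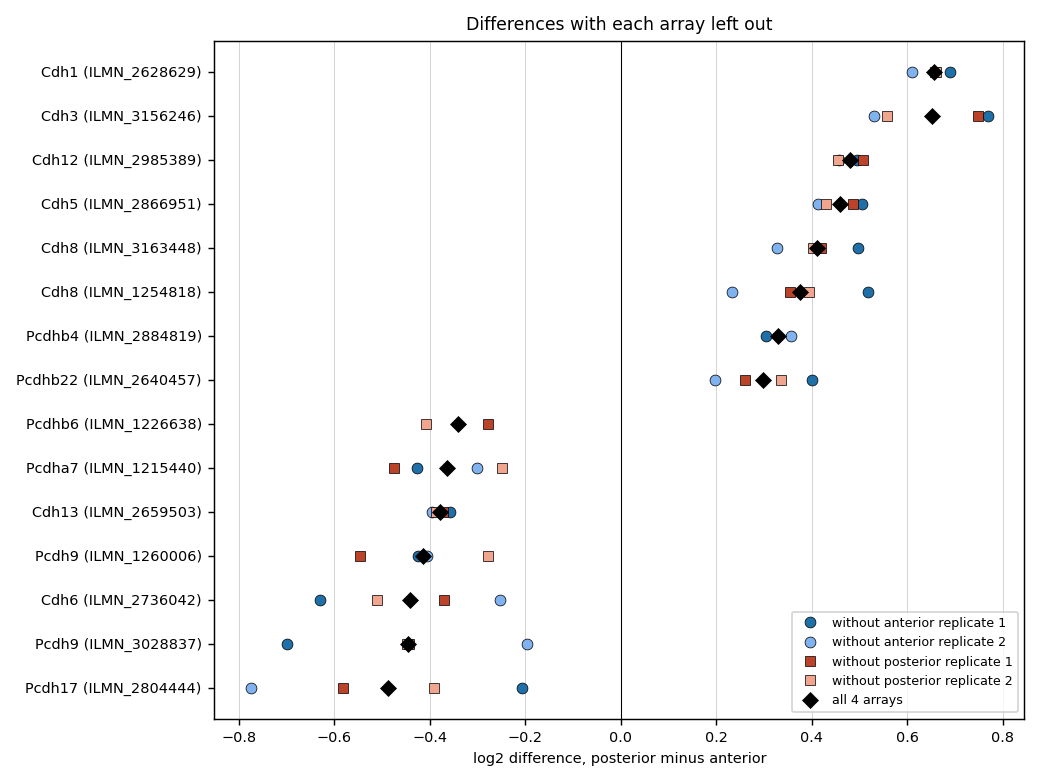
Log2 difference, posterior minus anterior (horizontal axis), of the 15 probes past the criterion with all 4 arrays (diamonds) and with each array left out (circles and squares). No difference that could be tested changed its side of 0 (Pcdhb4 was not tested without a posterior and Pcdhb6 not without an anterior array), the Cdh1 values stayed between 0.61 and 0.69, and those of Pcdh17 reached from -0.77 to -0.21.

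The count of calls moved with the arrays used. It was 15 of 72 with all arrays and 30 of 68 without anterior replicate 1, when 22.1% of all tested probes passed. It was 6 of 67 without posterior replicate 1 and 6 of 71 without posterior replicate 2, when 3.58% and 3.80% passed. Cdh1, Cdh3 (ILMN_3156246), Cdh12 (ILMN_2985389) and Cdh8 (ILMN_3163448) passed the criterion under each of the 15 alternative settings of processing and of arrays. Pcdh17, Pcdh9 (ILMN_3028837), Pcdhb22 and Cdh8 (ILMN_1254818) failed it under 5 of the 15, and Cdh6 under 4.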

How the data were processed

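RNA of anterior and posterior cerebellar lobes was read on Illumina MouseWG-6 v2.0 beadchips, with 2 arrays per lobe. Per the file headers, the authors exported mean bead intensity, its bead SD (also an intensity), bead numbers and a detection score, a fraction, with GenomeStudio 1.9.0, without normalization. Another 16 columns (minima, maxima, array numbers, array SDs) were not used. Array columns were assigned through the sample numbers of the labels.

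In R 4.3.3 the intensities were quantile normalized and, after a floor of 1, put on the log2 scale. Probes with a detection score over 0.95 on at least 2 arrays were fitted with limma 3.58.1 (lmFit, eBayes with intensity trend) and adjusted by Benjamini-Hochberg over 21726 probes. An exact two-sided permutation test of 2 against 2 arrays cannot go below 0.33. Probes past 1.2-fold and an unadjusted p under 0.05, probes detected in a single lobe, the extremes of each class, genes with several tested probes and the best known cerebellar cadherins were named. Members, classes and marker lists were chosen with earlier results of these data known. Symbols are those of the array; all 91 matched RefSeq (GRCm38.p6), 2 through older names. The fit was tested on simulated data.

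Alternatives were neqc (offset 16), no normalization, a 75th percentile shift, cyclic loess, a floor of 32, other filters, the methods' t-test, a fit without the intensity trend, a replicate block and each array left out.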

Additional observations from a re-analysis of the deposited data

How the results depend on the processing

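The count of cadherin and protocadherin probes past the study's criterion, 15, was 7 with the methods' t-test (1 of them lower, and 3.41% of all tested probes), 2 at 1.5-fold, which left Cdh1 and Cdh3, and 9 with 1 probe per gene. Leaving out an array gave 6 to 30 in all, 4 to 15 higher and 1 to 15 lower. With 1 array in a lobe, its variance is taken from the lobe that keeps 2. The count past the adjusted p, 0, lay between 0 and 18 with an array left out, with 18 without anterior replicate 1 and 1 without anterior replicate 2, when 2538 of 21201 and 221 of 21185 probes of the chip passed. Probes with separate lobes, 33, were 57 without a filter and 41 to 59 with an array left out, when 38.3% and 64.3% to 80.5% of all probes had them. The median log2 difference, -0.0030, was 0.032 with the 75th percentile shift, close to the median of 0.032 of all probes there, and lay between -0.044 and 0.0044 with an array left out. Partner calls, 5, were 3 without normalization, 9 without a filter, 2 with a detection score over 0.99, 3 with the methods' t-test, and 3 to 16 with an array left out. Of single probes below the criterion, Cdh2 lay between -0.094 (without anterior replicate 1) and 0.17, and Cdh7 between -0.0084 (without posterior replicate 2) and 0.11. The causes were not tested.

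The replicate numbers are not stated to pair the samples. Over all tested probes, replicate 1 minus replicate 2 of one lobe had r = 0.46 with that of the other. With the replicate number as a block, 3 of the 72 probes passed the adjusted p by limma, those of Cdh1 (0.016), Cdh3 (0.036) and Cdh18 (0.039), 19 passed the criterion and partner calls were 8. Of all tested probes 2.71% then passed the adjusted p and 13.0% the criterion.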
